A study of Rattus norvegicus with 27 samples.

Results

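The genes described here encode 10 cytosolic proteins of the Hsp110, Hsp70, Hsp90 and Hsp40 chaperone system. They are Hsph1, Hspa4, Hspa4l, Hspa8, Hsp90ab1, Dnaja1, Dnajb1, Dnaja4, Dnajb5 and Cacybp, and they were followed across condition, brain region and RNA fraction. They were chosen by symbol with earlier results of these data known, so their counts beside those of all genes are descriptions. All 10 of the 10 listed genes had a probe set with that single symbol in the platform annotation, out of 18166 genes with such a probe set, and each had 1. All 10 passed the filter on low values, which left 12716 genes in the tests. The samples were hippocampal CA1 and CA3 of male Long Evans rats on Affymetrix Rat Gene 2.0 arrays. One condition, 8R, was complete normothermic global brain ischemia of 10 min, made by occlusion of both carotid arteries with hypovolemic hypotension, followed by 8 h of reperfusion. The other, NIC, was a sham operation without ischemia, and ages are not given in the labels. Each array carried a pool of dissected tissue from 5 rats, either as total RNA of a post-mitochondrial supernatant or as RNA of the polysome pellet spun through a sucrose pad from the same kind of supernatant. There were 4 arrays of 8R CA1 total RNA, 8R CA3 total RNA and 8R CA3 polysome RNA, 3 of 8R CA1 polysome RNA, and 3 in each NIC group.

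Hsp70 proteins bind exposed stretches of unfolded proteins in cycles of ATP hydrolysis. Hsp40 (DnaJ) proteins deliver clients and stimulate the hydrolysis, Hsp110 proteins exchange the nucleotide so that the client is released, and Hsp90 completes the folding of signalling proteins passed on to it. The inducible genes of the system are known targets of heat shock factor 1, which binds heat shock elements, inverted repeats of the letters GAA, in their promoters. Global ischemia is known for the delayed death of CA1 pyramidal neurons, with most CA3 neurons surviving, and for depressed translation early in reperfusion.

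The promoters are shown because heat shock elements are the best known control of this family. Each promoter window ran from 250 bases before the annotated start to 50 after it, in the rat build GRCr8 of RefSeq, and was searched for a 3-unit element. Its letters are GAA, any 2 bases, TTC, any 2 bases and GAA, or the reverse complement, TTC, any 2 bases, GAA, any 2 bases and TTC, so both strands were covered. Such a match was present in 267 of 33469 windows (0.798%) and in 3 of the 10 genes. All of the genes had a window. Hspa4, Hspa4l, Hsp90ab1, Dnajb1, Dnaja4, Dnajb5 and Cacybp had no match to these letters in it, which says nothing of more distant or shorter elements. The sequences run 5′ to 3′ with the matches in capitals. They are the 250 bases before the start of Hsph1 at chr12:10427118-10427367 (+ strand), the 250 bases before the start of Hspa8 at chr8:50080264-50080513 (+ strand), and 30 bases around the match just after the start of Dnaja1 at chr5:60638405-60638434 (+ strand).
Hsph1: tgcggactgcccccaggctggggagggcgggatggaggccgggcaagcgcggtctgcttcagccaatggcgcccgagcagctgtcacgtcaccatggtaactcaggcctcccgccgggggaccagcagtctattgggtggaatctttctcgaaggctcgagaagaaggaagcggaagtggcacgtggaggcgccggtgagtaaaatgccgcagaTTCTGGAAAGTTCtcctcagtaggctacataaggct
Hspa8: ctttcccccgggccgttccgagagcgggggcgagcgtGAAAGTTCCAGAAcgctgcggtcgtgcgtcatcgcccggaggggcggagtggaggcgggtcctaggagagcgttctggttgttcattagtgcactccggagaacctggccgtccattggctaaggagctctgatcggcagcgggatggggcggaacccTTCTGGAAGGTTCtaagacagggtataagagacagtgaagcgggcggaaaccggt
Dnaja1: gccgggcgGAACTTTCCAGAAcgctcggtg
The match of Hsph1 lay at positions -36 to -24 from the start, those of Hspa8 at -213 to -201 and at -55 to -43, and that of Dnaja1 at 10 to 22. A match is a description of the letters, and occupancy by a factor was not measured.

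Intensities are on a linear scale and depend on the probes, so levels are compared between samples for 1 gene and not between genes. Values of a group are given in the order of its pool numbers, 1 to 4 in 8R and 1 to 3 in NIC, except that replicates 1, 2 and 3 of 8R CA1 polysome RNA are pools 1, 3 and 4. Array medians lay between 25.6 and 38.1, the lowest correlation between arrays of a group was 0.955, and genes varied between arrays of a group by a median SD of 0.149 to 0.173 log2 in 8R and 0.0985 to 0.109 log2 in NIC. Among 8R arrays those of pool 4 were the most different from the rest, so counts that move without them are given. The dissection followed the labels for Wfs1, a CA1 pyramidal marker, which measured 455 to 1122 in CA1 arrays and 138 to 193 in CA3 arrays. Not all markers did so. Of 8 CA1 pyramidal markers 5 were called higher in CA1 in NIC total RNA, where 2.41% of all genes were. Of 7 CA3 pyramidal markers 0 were called there, and 3 were called lower in CA1 in 8R total RNA. Their sum was 1378 to 1448 in NIC CA1 polysome RNA and 1238 to 1358 in NIC CA3 polysome RNA. Prox1, a dentate granule marker, measured 154 to 194 and 74.7 to 88.5 in these 2 groups. Every array received an equal mass of RNA, so a change in the amount of RNA or in overall translation is not seen. In such bulk samples, fewer cells of a type and less RNA per cell cannot be told apart. Nothing says that pools of CA1 and CA3 came from different rats.

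In CA1 total RNA, all 10 genes were higher after ischemia and reperfusion at an adjusted p under 0.05 by limma, by 0.37 to 2.10 log2 with a median of 0.77. Over all genes tested 20.1% were called higher, and the median change was 0.04. The 8R arrays lay above every NIC array for all 10 genes, which held for 24.5% of all genes. The largest rises were those of the Hsp110 gene Hsph1 and the Hsp40 gene Dnaja1, and each of the 10 calls was made in all 15 alternative settings that could change it.

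Among Hsp110 genes, Hsph1 encodes the heat-inducible member. It measured 2122, 1779.8, 1719 and 2223 in 8R CA1 total RNA, against 458, 422 and 451 in NIC CA1 total RNA. The lowest 8R array was thus far above the highest NIC array, and the difference was 4.28-fold (2.10 ± 0.16 log2, SE, adjusted p = 5.83e-11). It ranked at position 12 of the 12716 genes by size of rise. Hspa4, a constitutive Hsp110 protein also called Apg-2, measured 754, 597, 636 and 697 in 8R, against 380.1, 325 and 386 in NIC (0.85 ± 0.10 log2, adjusted p = 3.17e-07). Its relative Hspa4l averaged 285 ± 39.9 in 8R and 170.2 ± 21.3 in NIC (SD, n = 4 and 3), a difference of 0.69 ± 0.11 log2 (adjusted p = 1.98e-05). The 8R and NIC arrays were apart for all 3 Hsp110 genes.

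The constitutive Hsp70 and Hsp90 genes rose by less. Hspa8 encodes Hsc70, which also uncoats clathrin vesicles at synapses. It measured 4358, 3939.5, 4165 and 4665 in 8R CA1 total RNA and 2896, 2702 and 2898 in NIC CA1 total RNA, a difference of 0.59 ± 0.08 log2 (adjusted p = 1.8e-06). Hsp90ab1, the constitutive Hsp90 beta, averaged 1133 ± 127 in 8R and 867 ± 20.3 in NIC and had the smallest rise of the 10, 0.37 ± 0.10 log2 (adjusted p = 0.0041). The reference annotation lists 33 symbols of Hspa8 pseudogenes and 23 of Hsp90ab1, against 4 of Dnaja1 and 1 each of Dnaja4 and Cacybp, and whether their transcripts reach these probes was not tested.

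Among Hsp40 genes, Dnaja1, a class A cochaperone that delivers clients to Hsp70, measured 1544, 1275, 1272 and 1615 in 8R CA1 total RNA, against 419, 350.4 and 492 in NIC CA1 total RNA. This was a 3.32-fold rise (1.73 ± 0.12 log2, adjusted p = 3.06e-11), at position 20 of all genes. Dnajb1, the heat-inducible class B cochaperone, measured 285, 213, 224 and 262 in 8R and 118, 111 and 133 in NIC, with no overlap and a rise of 0.93 ± 0.14 log2 (adjusted p = 1.09e-05). Dnajb5, another class B member, averaged 780.4 ± 156 in 8R and 546 ± 13.1 in NIC (0.48 ± 0.13 log2, adjusted p = 0.00684). Dnaja4 averaged 279 ± 8.38 in 8R and 200.3 ± 7.19 in NIC (0.45 ± 0.08 log2, adjusted p = 6.49e-05), so its arrays were tight in both groups. Cacybp encodes calcyclin-binding protein, which shares the CS domain of the Hsp90 cochaperones Sgt1 and p23 and links the Siah1 ubiquitin ligase to Skp1. It measured 585, 555, 479.5 and 679 in 8R, against 293, 225 and 292 in NIC, a rise of 1.04 ± 0.13 log2 (adjusted p = 5.87e-07).

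**Figure D1:**
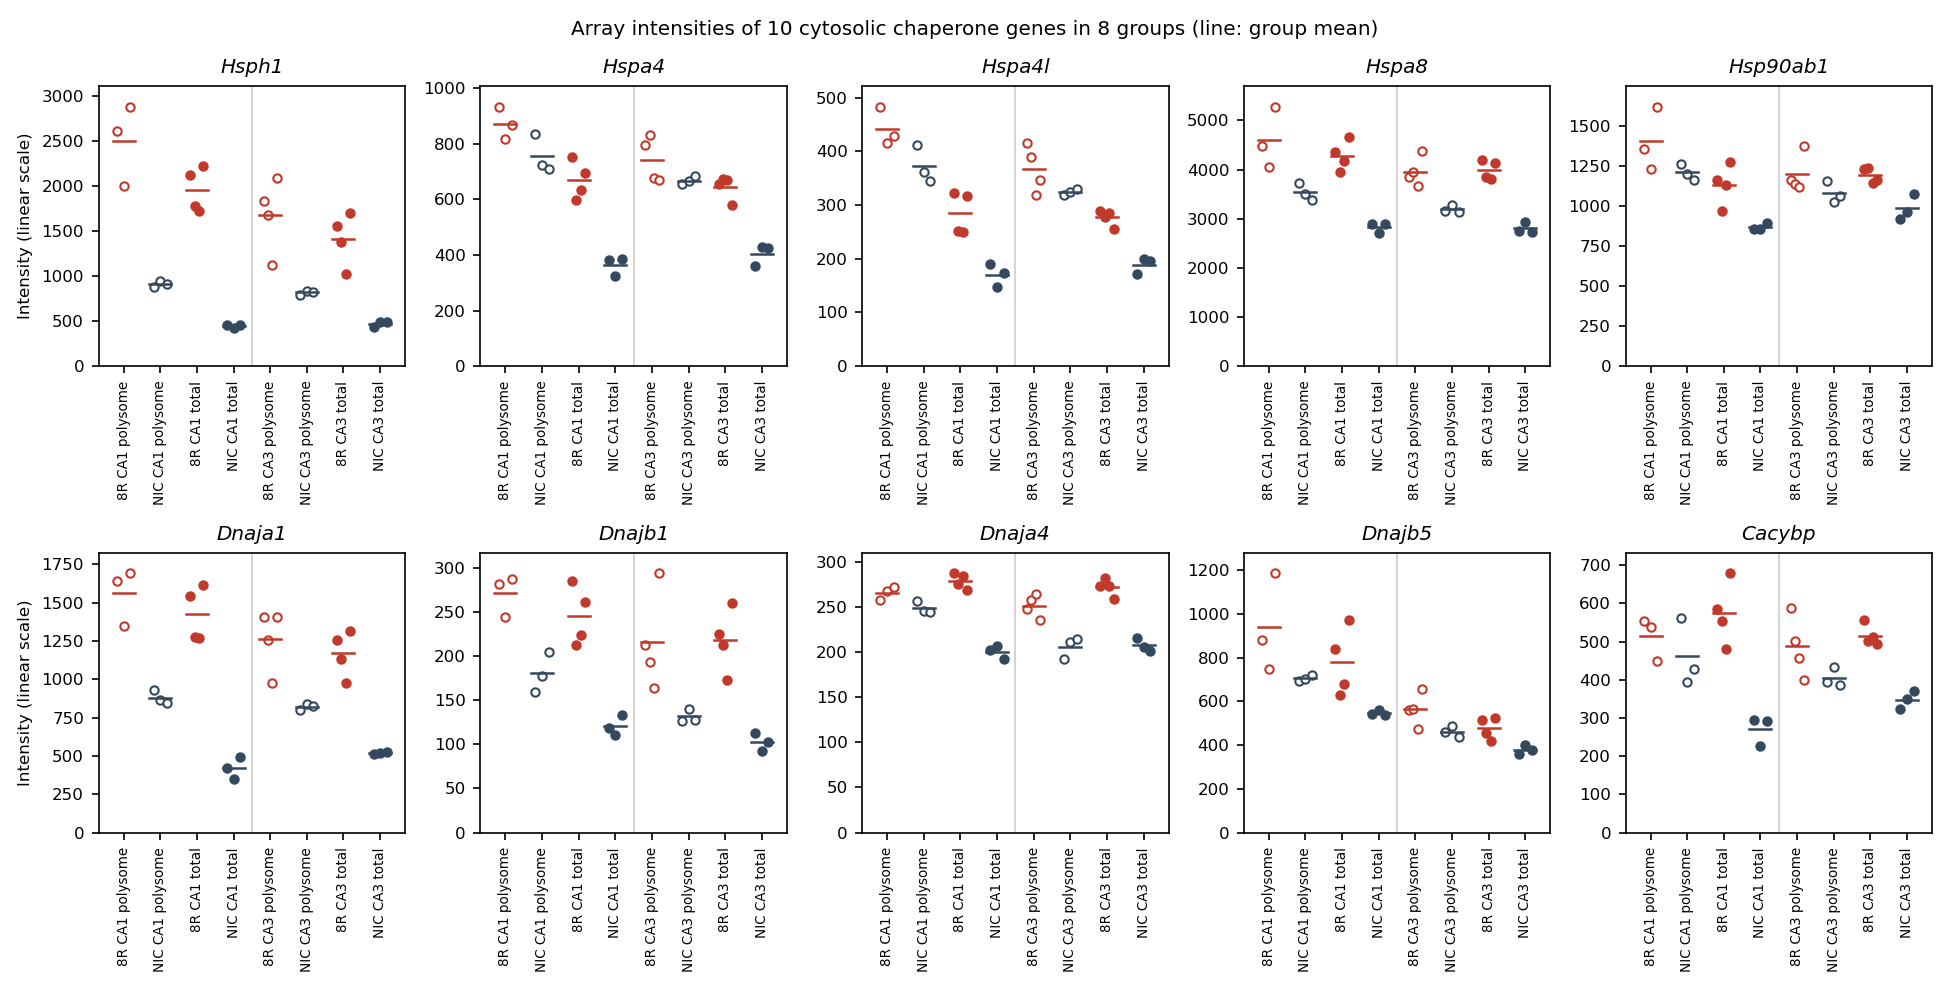
Array intensity (linear scale, vertical axis from 0) of the 10 chaperone genes in all 8 groups. Red points are 8R arrays and dark blue points NIC arrays, open points are polysome RNA and filled points total RNA, and lines are group means. For Hsph1, 8R CA1 total arrays sit between 1719 and 2223, above NIC CA1 total arrays at 422 to 458.

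In CA3 total RNA, 9 of the 10 genes were higher in 8R, by limma, with differences of 0.27 to 1.54 log2 over the 10 and a median of 0.53. Over all genes 14.2% were called higher, with a median change of 0.08. The exception was Dnajb5, which averaged 478 ± 51.7 in 8R and 378 ± 21.3 in NIC (0.32 ± 0.13 log2, adjusted p = 0.0998) and was called without the pool 4 arrays (adjusted p = 0.0244). All 8R arrays lay above all NIC arrays for each of the 10 genes, against 20.2% of all genes.

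Hsph1 again changed most, with 1551, 1382, 1018 and 1698 in 8R CA3 total RNA, against 431, 484 and 489.7 in NIC CA3 total RNA (2.90-fold, 1.54 ± 0.16 log2, adjusted p = 1.95e-07). Dnaja1 measured 1259, 1131, 974 and 1318 in 8R, against 515, 517 and 523 in NIC (1.14 ± 0.12 log2, adjusted p = 5.36e-07). For both of these genes the 8R array of pool 3 was the lowest of its group. Dnajb1 measured 224, 213, 173 and 260.4 in 8R and 113, 92.7 and 103 in NIC, a rise of 0.96 ± 0.14 log2 (adjusted p = 2.88e-05) that was close to its rise in CA1. The Hsp110 genes Hspa4 and Hspa4l rose by 0.65 ± 0.10 and 0.52 ± 0.11 log2, and Hspa8, Cacybp and Dnaja4 by 0.51 ± 0.08, 0.55 ± 0.13 and 0.36 ± 0.08 log2. Hsp90ab1 averaged 1190.5 ± 46.7 in 8R and 984 ± 81.9 in NIC (0.27 ± 0.10 log2). Its adjusted p of 0.0499 was at the threshold, and the call was made in 6 of 15 alternative settings. Quantile normalization lost this call (adjusted p = 0.214) and that of Dnaja4 (adjusted p = 0.0622).

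Markers of other cells moved with the condition in the same arrays. The summed intensity of 6 astrocyte markers was 4334 to 4965 in 8R CA1 total RNA and 3359 to 3544 in NIC CA1 total RNA, and 3367 to 4172 in 8R CA3 total RNA and 3031 to 3132 in NIC CA3 total RNA, with 4 and 1 of the 6 called higher. The sum of 8 microglia markers was 420 to 482 in 8R CA1 total RNA and 359 to 384 in NIC CA1 total RNA, and 402 to 424 in 8R CA3 total RNA and 313 to 339 in NIC CA3 total RNA, with 2 of 6 tested called higher in each region. Over all genes 20.1% were called higher in CA1 total RNA and 14.2% in CA3 total RNA, so 1 of 6 astrocyte markers in CA3 was near that share. The astrocyte and microglia sums were also above NIC without overlap in polysome RNA of both regions. For sums, here and below, no share over all genes was computed. Of neuronal markers, the CA1 pyramidal sum (8 genes) was 1050 to 1677 in 8R CA1 total RNA and 1289 to 1446 in NIC, and the interneuron sum (8 genes) 1888 to 2356 in 8R and 1737 to 1948 in NIC, both with overlap. The CA3 pyramidal sum (7 genes) in CA1 total RNA was 865 to 998 in 8R and 1030.0 to 1079 in NIC, and the dentate granule sum (6 genes) 771 to 1088 in 8R and 613 to 764 in NIC. In CA3 total RNA the interneuron sum was 1944 to 2027 in 8R and 1767 to 1827 in NIC, and the sum of 7 oligodendrocyte markers 1997 to 2249.8 in 8R and 1545 to 1868 in NIC. In CA1 polysome RNA the interneuron sum was 2403 to 2749.6 in 8R and 2139 to 2254 in NIC, and the CA3 pyramidal sum 965 to 1066 in 8R and 1378 to 1448 in NIC. In CA3 polysome RNA 4 further sums were apart. The CA1 pyramidal sum was 574 to 644 in 8R and 651 to 736 in NIC, the dentate granule sum 506 to 744 in 8R and 745 to 887 in NIC, the interneuron sum 1968 to 2237 in 8R and 1848 to 1932 in NIC, and the sum of 5 endothelial markers 80.5 to 118 in 8R and 71.4 to 76.1 in NIC. Oligodendrocyte and endothelial sums overlapped between conditions in CA1 total RNA. Some markers came close to 0 in single arrays, Slco1a4 at 0.00716 and Tdo2 at 0.271. The sums include markers that did not pass the filter on low values. These were Tek, Cdh5 and Slco1a4 of the 5 endothelial markers, and Tdo2, Vip, Tmem119 and Itgam of other lists. The part of these cells in the chaperone changes was not tested.

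The changes in CA1 and CA3 were then set against each other. The CA1 change was the larger for 9 of the 10 genes in total RNA, by a median of 0.17 log2, but 0 genes were called (0.0236% of all genes were called in either direction, and 3 of the 10 had an unadjusted p under 0.05 by limma). The difference between regions was 0.59 ± 0.17 log2 for Dnaja1 (95% confidence interval 0.23 to 0.94, adjusted p = 0.705), 0.56 ± 0.22 for Hsph1 (0.11 to 1.01, adjusted p = 0.895) and 0.49 ± 0.18 for Cacybp (0.12 to 0.87, adjusted p = 0.843). With the pool as a fixed block, Dnaja1 (adjusted p = 0.00357) and Hsph1 (adjusted p = 0.00502) were called larger in CA1, with 0.629% of all genes called in either direction. For Dnajb1 the difference was -0.03 log2 (-0.44 to 0.38). In polysome RNA 0 genes were called (0.0157% of all genes in either direction, and 0 of the 10 had an unadjusted p under 0.05), with differences from -0.18 for Dnaja4 to 0.43 for Hsph1.

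In CA1 polysome RNA, 4 of the 10 were called higher in 8R, Hsph1, Dnaja1, Dnajb1 and Hspa8, where 4.87% of all genes were. Differences ran from 0.09 to 1.42 log2 with a median of 0.31, and the median over all genes was 0.01. In CA3 polysome RNA the same 4 genes were called, where 2.38% of all genes were, with differences of 0.14 to 0.99 log2, a median of 0.27 and a median over all genes of 0.04. The 8R arrays lay above all NIC arrays for 7 of the 10 genes in CA1 (13% of all genes) and for 5 in CA3 (13.2% of all genes).

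Hsph1 measured 2608, 1999.8 and 2880.4 in 8R CA1 polysome RNA, against 882, 939 and 916 in NIC CA1 polysome RNA, a rise of 2.68-fold (1.42 ± 0.17 log2, adjusted p = 1.9e-06). In CA3 polysome RNA it measured 1834, 1674, 1124 and 2088 in 8R and 795, 838 and 818 in NIC (0.99 ± 0.16 log2, adjusted p = 0.000335). The lowest 8R array in CA3 was pool 3, still above the NIC arrays. Dnaja1 measured 1641, 1348 and 1693 in 8R CA1 polysome RNA, against 929.8, 867 and 846 in NIC (0.81 ± 0.13 log2, adjusted p = 0.000213), and in CA3 1406, 1258, 977 and 1407 in 8R, against 803, 837 and 828 in NIC (0.59 ± 0.12 log2, adjusted p = 0.00795). These 2 genes were called on polysomes in every alternative setting of both regions.

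The polysome calls of Dnajb1 and Hspa8 depended more on single arrays. Dnajb1 measured 282, 244 and 287 in 8R CA1 polysome RNA and 159, 177 and 205 in NIC (0.55 ± 0.15 log2, adjusted p = 0.0198), and in CA3 212, 193, 164 and 294 in 8R, against 127, 140.1 and 128 in NIC (0.62 ± 0.14 log2, adjusted p = 0.0167). The groups did not overlap in either region, and the call was made in 10 of 14 alternatives in CA1 and 10 of 15 in CA3. Without the 8R pool 4 array alone, Dnajb1 had adjusted p = 0.0909 in CA1 and 0.0665 in CA3. The CA1 call of Dnajb1 was also lost without NIC replicate 1 (0.105), NIC replicate 2 (0.066) or 8R replicate 1 (0.0792). Its CA3 call was also lost without NIC replicate 1 (0.0624) or NIC replicate 3 (0.0796). Hspa8 measured 4484, 4051 and 5278 in 8R CA1 polysome RNA, against 3723, 3508 and 3387 in NIC (0.37 ± 0.08 log2, adjusted p = 0.00574), and in CA3 3853, 3942, 3661 and 4383 in 8R, against 3158, 3276 and 3132 in NIC (0.31 ± 0.08 log2, adjusted p = 0.0307). Its CA3 call was made in 7 of 15 alternatives, and without the 8R pool 4 array the adjusted p was 0.118 in CA3 and 0.0771 in CA1. The CA3 call of Hspa8 was also lost without any 1 of the NIC arrays (adjusted p from 0.0736 to 0.138). So the count in CA1 polysome RNA was 2 without the pool 4 array of that group, and the count in CA3 polysome RNA was also 2 without the pool 4 array, without NIC replicate 1 or without NIC replicate 3. Without all of the pool 4 arrays in the fit, 4 genes were called in CA1 and 5 in CA3.

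The other 6 genes were not called on polysomes. Hspa4 measured 934, 816 and 866 in 8R CA1 polysome RNA, against 835, 723 and 709 in NIC, and the groups overlapped (0.20 log2, 95% confidence interval -0.02 to 0.42, adjusted p = 0.257). Cacybp measured 553, 539 and 449 in 8R and 562, 394 and 427 in NIC, with overlap (0.16 log2, -0.12 to 0.44, adjusted p = 0.529). Hspa4l, Hsp90ab1, Dnaja4 and Dnajb5 differed by 0.24, 0.20, 0.09 and 0.38 log2 in CA1 polysome RNA, and in CA3 polysome RNA by 0.17, 0.14, 0.27 and 0.27. Dnajb5 (adjusted p = 0.0959) in CA1 and Dnaja4 (adjusted p = 0.0527) in CA3 were the nearest to the threshold, and Dnaja4 was called in CA3 without pool 4 (adjusted p = 0.0177). With quantile normalization between arrays, 7 of the 10 were called in CA1 polysome RNA, where 9.83% of all genes were called in either direction. In CA3 polysome RNA that setting lost the calls of Hspa8 (adjusted p = 0.39) and Dnajb1 (adjusted p = 0.0679) and gained that of Dnaja4 (adjusted p = 0.0383).

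**Figure D2:**
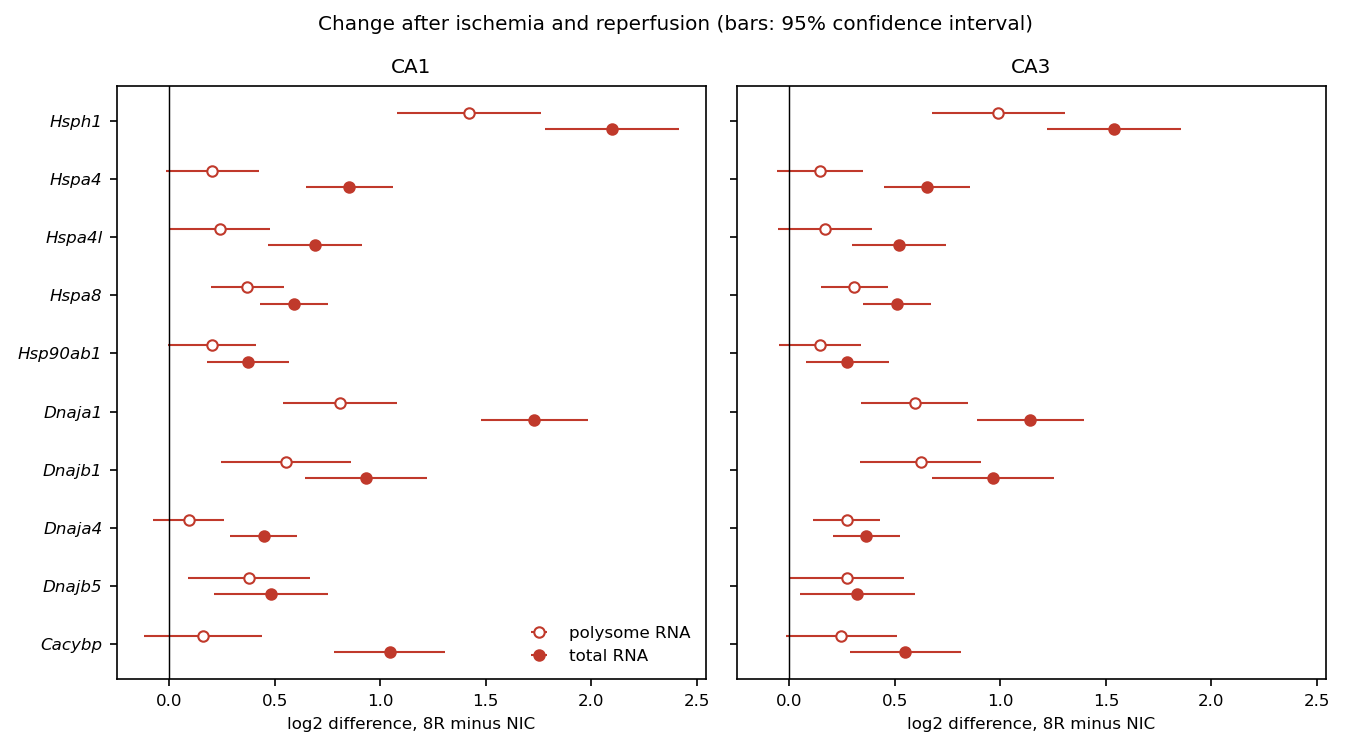
Difference between 8R and NIC (horizontal axis, log2) for the 10 chaperone genes in CA1 and CA3, with open points for polysome RNA, filled points for total RNA and bars for 95% confidence intervals. In both regions each polysome point lies left of the total RNA point of its gene, for Hsph1 in CA1 at 1.42 against 2.10.

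The change on polysomes was set against the change in total RNA in 1 test of their difference, which is the change of the polysome to total ratio. In CA1 it was negative for all 10 genes, with a median of -0.42 against -0.06 over all genes tested. It was called for 3 of them, Dnaja1, Cacybp and Hspa4, where 3.41% of all genes were called lower. In CA3 it was negative for all 10 too, with a median of -0.32 against -0.07 over all genes, and 0 were called (0.165% of all genes in either direction, and 4 of the 10 had an unadjusted p under 0.05). Quantile normalization lost the CA1 call of Hspa4 (-0.41 log2, adjusted p = 0.0602) and gained that of Hspa8 (-0.39 log2, adjusted p = 0.0458). The Hspa4 call was also lost without NIC CA1 polysome replicate 1 (adjusted p = 0.0559). Quantile normalization turned the sign of Dnajb5 in both regions, to 0.09 in CA1 and 0.12 in CA3. It also turned that of Dnaja4 in CA3, to 0.10, and none of these was called. Of all genes called, 10.7% were higher in CA1 as deposited and 40.5% after quantile normalization, and 33.3% and 57.9% in CA3. The sign of Dnajb5 also turned without single 8R arrays, 8R CA1 polysome replicate 2 or 8R CA1 total replicate 4 in CA1 and 8R CA3 polysome replicate 3 in CA3.

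The ratio of Dnaja1 in CA1 was 0.09, 0.08 and 0.07 log2 within 8R pools 1, 3 and 4, against 1.12, 1.27 and 0.76 log2 within NIC numbers 1 to 3. It is uncertain that NIC numbers name the same pool in both fractions, since 1 of 6 such NIC pairs deviated together (r above 0.1) against 7 of 7 in 8R. The test does not use the pairing. Its polysome and total signals were thus nearly equal in 8R and apart in NIC, a difference of -0.92 ± 0.18 log2 (adjusted p = 0.00963). For Cacybp the ratio was -0.08, 0.16 and -0.58 log2 in 8R, with pool 4 the lowest, and 0.90, 0.77 and 0.53 log2 in NIC (-0.88 ± 0.19 log2, adjusted p = 0.0131). Hspa4 had ratios of 0.30, 0.35 and 0.31 log2 in 8R, against 1.10, 1.12 and 0.85 log2 in NIC (-0.65 ± 0.15 log2, adjusted p = 0.0157). No 8R ratio reached the lowest NIC ratio for any of these 3 genes, but this does not set them apart. The same held for the uncalled genes, as for Hspa8, with 0.18 log2 as the highest 8R ratio and 0.22 log2 as the lowest NIC ratio. These ratios rest on the uncertain NIC numbers, and the share over all genes was not computed. Hsph1 showed ratios of 0.30, 0.22 and 0.37 log2 in 8R and 0.92, 1.12 and 1.00 log2 in NIC, a difference of -0.68 ± 0.23 log2 that was not called (adjusted p = 0.0827). For Hspa8 and Hsp90ab1 the difference was -0.22 (95% confidence interval -0.46 to 0.01) and -0.17 (-0.46 to 0.12), and for Dnajb5 -0.11 (-0.50 to 0.29).

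How many genes were called depended on how pools were handled, and same-numbered 8R arrays deviated together while NIC arrays mostly did not. With the pool as a random block, 6 of the 10 were called lower in CA1, Dnaja1, Cacybp, Hspa4, Hsph1 (adjusted p = 0.005), Hspa4l (adjusted p = 0.0269) and Dnaja4 (adjusted p = 0.0208), and as a fixed block 8, the same with Hspa8 (adjusted p = 0.0466) and Dnajb1 (adjusted p = 0.0425). In CA3 both blocks called 3, Hsph1 (adjusted p = 0.0241 and 0.00172), Hspa4 (0.0133 and 0.00717) and Dnaja1 (0.012 and 0.002). Over all genes the random block called 14.1% in CA1 and 10.7% in CA3 in either direction, and the fixed block 17.1% and 16.5%. Without the pool 4 arrays the count was 5 in CA1 and 2 in CA3, with 8.59% and 9.89% of all genes called in either direction. Without replicate 2 of NIC CA1 total RNA, the lowest array of that group for Dnaja1, Cacybp and Hspa4, it was 0 in CA1, with adjusted p = 0.0552, 0.0658 and 0.0787. Between CA1 and CA3 the change of the ratio was called for 0 of the 10 genes (0% of all genes), and 1 of the 10, Cacybp, had an unadjusted p under 0.05 (-0.58 log2, 95% confidence interval -1.11 to -0.05).

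**Figure D3:**
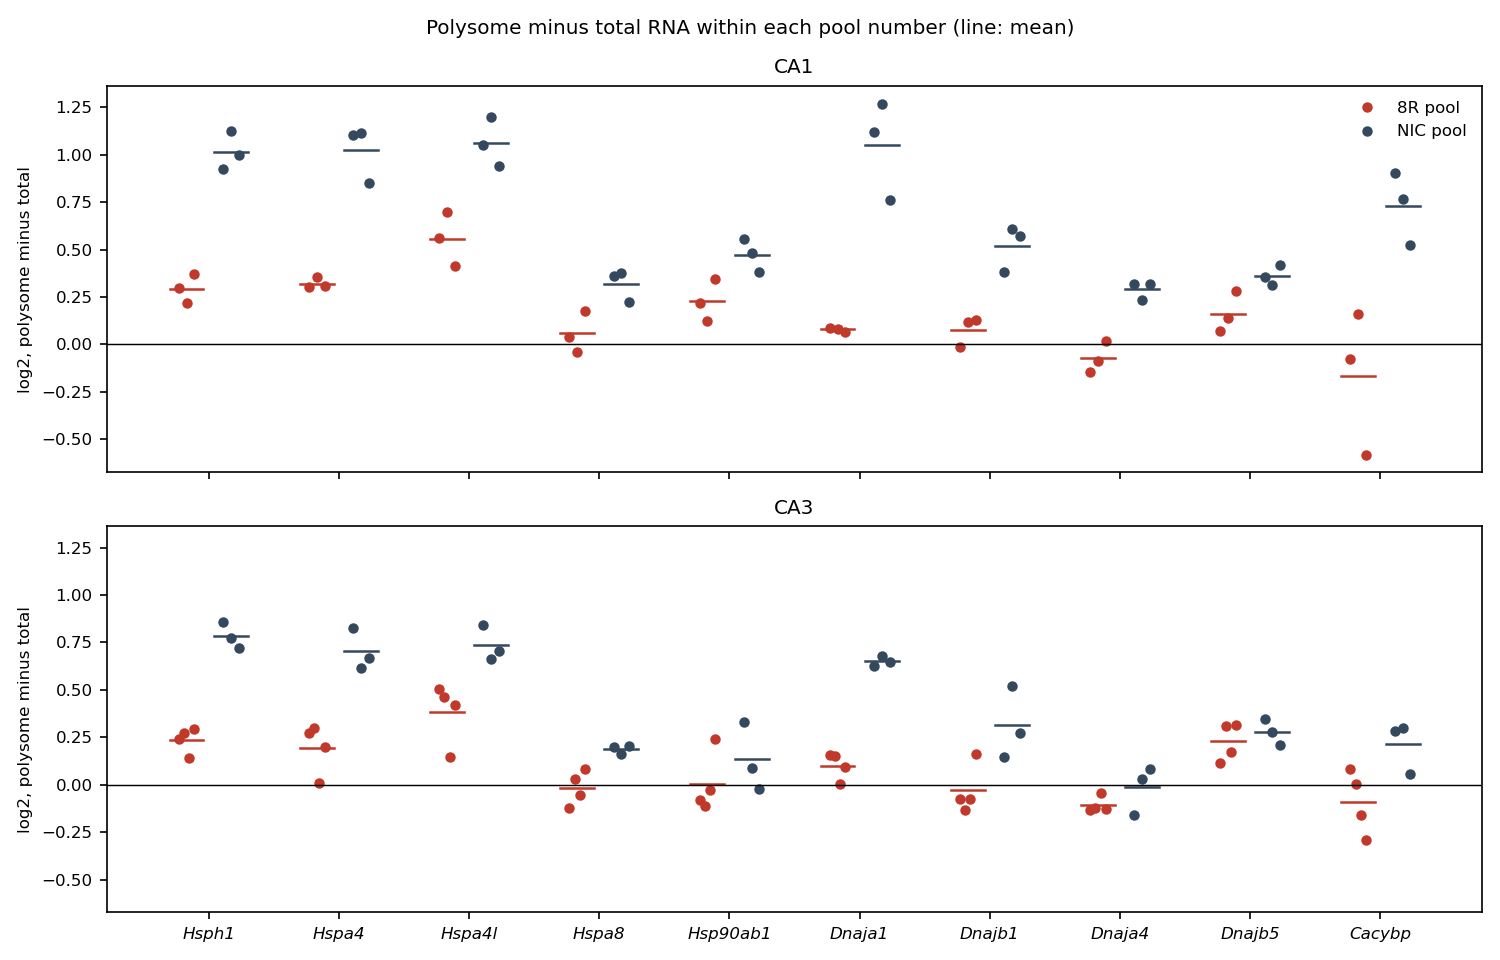
Polysome minus total RNA (vertical axis, log2) between arrays of the same number for the 10 chaperone genes, in CA1 above and CA3 below, with red points for 8R, dark blue points for NIC and lines for means. For Dnaja1 in CA1 the 8R points sit at 0.07 to 0.09 and the NIC points at 0.76 to 1.27.

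The ratio itself was read in each condition. In NIC CA1 all 10 genes were higher in polysome RNA than in total RNA, by 0.29 to 1.06 log2, where 39.4% of all genes were called higher. The call of Dnajb5 was lost without any 1 of the 6 arrays compared (adjusted p from 0.0655 to 0.0926) and without the filter on low values (0.0513). The Hsp110 genes Hspa4l (1.06), Hspa4 (1.02) and Hsph1 (1.01) and the Hsp40 gene Dnaja1 (1.05) had the largest values. The scale between fractions is less certain, since the median over all genes was 0.20 log2 as deposited and 0.01 after quantile normalization, under which 6 of the 10 were called and Dnaja4 turned to -0.11. Of all called genes in NIC CA1, 89.5% were higher in polysome RNA as deposited and 56.7% after quantile normalization. In NIC CA3 4 genes were higher on polysomes, Hsph1 (0.78), Hspa4l (0.74), Hspa4 (0.70) and Dnaja1 (0.65), where 21.5% of all genes were, and 7 with either pool block, under which 48.7% (random) and 49.7% (fixed) of all genes were called in either direction. These are the same 4 genes that had the largest values in NIC CA1.

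In 8R CA1 3 genes were higher on polysomes, Hspa4l (0.61 ± 0.11 log2), Hspa4 (0.37 ± 0.10) and Hsp90ab1 (0.30 ± 0.10), where 28.5% of all genes were called higher and the median over all genes was 0.18. These 3 of the 10 are near that share. The count was 4 with the random block and 5 with the fixed block, with 43.9% of all genes called in either direction under both. The Hsp90ab1 call was lost with quantile normalization (adjusted p = 0.197) and with only the groups compared in the fit (0.114). It was also lost without 8R CA1 polysome replicate 3 (0.148) or 8R CA1 total replicate 2 (0.0761). Of all called genes 82.8% were higher on polysomes as deposited and 52.7% after quantile normalization, and in 8R CA3 37.3% and 52.2%. In 8R CA3 1 gene was higher, Hspa4l (0.38 ± 0.10 log2, adjusted p = 0.00609), where 7.7% of all genes were, so this count too is near the share of all genes. It was 3 with the fixed block, which called 31.7% of all genes in either direction. Dnaja1, at 1.05 log2 in NIC CA1, had 0.13 ± 0.12 log2 in 8R CA1 (adjusted p = 0.423). The order of its 8 group means placed 8R CA1 polysome RNA first (1561 ± 186), then 8R CA1 total RNA (1427 ± 179), 8R CA3 polysome RNA (1262 ± 203) and 8R CA3 total RNA (1171 ± 152), with overlapping neighbours. They were followed by NIC CA1 polysome RNA (881 ± 43.7), NIC CA3 polysome RNA (823 ± 17.5), NIC CA3 total RNA (518 ± 4.42) and NIC CA1 total RNA (420.5 ± 71), each apart from the next. Hsph1 had the same order of groups.

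Between regions, 1 gene was called in all 4 comparisons. Dnajb5 was higher in CA1 than in CA3 in 8R total RNA (0.68 ± 0.12 log2, adjusted p = 0.000495), in NIC total RNA (0.51 ± 0.14, adjusted p = 0.0361), in 8R polysome RNA (0.70 ± 0.13, adjusted p = 0.000321) and in NIC polysome RNA (0.60 ± 0.14, adjusted p = 0.00331). In total RNA it measured 841, 630.1, 679 and 972 in 8R CA1 and 517, 453, 416 and 524 in 8R CA3, and 539.9, 561 and 536 in NIC CA1 against 357, 399.9 and 375 in NIC CA3. Its CA1 and CA3 arrays did not overlap in any of the 4. The NIC total RNA call was lost when any 1 of the 6 arrays was left out (adjusted p from 0.0651 to 0.15). Quantile normalization lost both NIC calls (adjusted p = 0.0987 in total RNA and 0.188 in polysome RNA). Over all genes, 3.57% and 2.41% were called higher in CA1 in 8R and NIC total RNA, and 24.1% and 27.7% in 8R and NIC polysome RNA. How many of all genes were called, or did not overlap, in all 4 was not counted.

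The other region differences were smaller. In NIC total RNA Dnajb5 was the only one of the 10 called higher in CA1 (2.41% of all genes), and Cacybp (-0.35, adjusted p = 0.203) and Dnaja1 (-0.30, adjusted p = 0.286) were the lowest relative to CA3. In 8R total RNA 2 were called, Dnajb5 and Hsph1 (0.49 ± 0.14 log2, adjusted p = 0.0366), where 3.57% of all genes were. The Hsph1 call was lost without any of 4 single arrays, 8R CA1 total replicate 1 or 4 and 8R CA3 total replicate 2 or 3 (adjusted p from 0.0854 to 0.199). In polysome RNA the median over all genes was itself 0.19 log2 higher in CA1 in 8R and 0.23 in NIC, and -0.01 and 0.00 after quantile normalization. There 3 genes were called in 8R (24.1% of all genes), Dnajb5, Hsph1 (0.59) and Hspa8 (0.21), and 3 in NIC (27.7% of all genes), Dnajb5, Dnajb1 (0.41) and Dnaja4 (0.26). Both counts are near the shares of all genes. After quantile normalization 1 was called in 8R and 0 in NIC, and the share of all called genes that were higher in CA1 moved, to 51.5% against 95.1% as deposited in 8R polysome RNA, to 58.9% against 97.4% in NIC polysome RNA and to 58.2% against 69.4% in NIC total RNA. With the pool as a block 8 were called higher in CA1 in 8R polysome RNA, where 35% (random) and 35.5% (fixed) of all genes were called in either direction. In NIC total RNA the fixed block called Dnajb5 higher and Dnaja1 lower in CA1 (-0.30 log2, adjusted p = 0.0117), with 9.19% of all genes called.

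The 10 genes followed a common course over the 27 arrays. The correlation of each with the mean of the other 9 ran from 0.667 for Dnajb5 to 0.966 for Dnaja1, as a description, since all share the 8R arrays and their array scaling. After the group means were removed, the deviations of pairs of genes correlated at a median of 0.36 over 45 pairs (lowest -0.46, highest 0.91), with 34 pairs above 0. Differences between 8R pools in the size of their response remain in these deviations, as do shared pools and array scaling. In 8R CA1 total RNA all 10 genes lay above their group mean in pool 1, and 9 of them in pool 4, while 0 did in pool 2 and 2 did in pool 3. Outside the set, the genes whose log2 values over the 27 arrays were most like the mean of the 10 standardized genes were Hspa9 (Pearson r = 0.981), Marchf7 (0.969), Eprs1 (0.968), Ccar1 (0.966) and Hspd1 (0.966). Hspa9 and Hspd1 encode the Hsp70 and Hsp60 chaperones of mitochondria, Eprs1 an aminoacyl-tRNA synthetase, Marchf7 a ubiquitin ligase and Ccar1 a transcription coactivator. Hspa9 measured 878 to 1118 in 8R CA1 total RNA and 419 to 471 in NIC CA1 total RNA.

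Further chaperone genes were read from 5 lists of 74 genes, of which 57 were tested. In CA1 total RNA 36 of the 57 were higher and 2 lower in 8R, with a median of 0.44 log2, where 20.1% of all genes were called higher and 6.15% lower. In CA3 total RNA 28 were higher and 0 lower, where 14.2% of all genes were called higher, and the median was 0.34 log2 against 0.08 over all genes. On polysomes 5 were higher in CA1, where 4.87% of all genes were, and 2 in CA3, where 2.38% were. The CA3 count is near the share of all genes. The polysome medians of the 57 were 0.01 and 0.03 log2, against 0.01 and 0.04 over all genes. The change of the polysome to total ratio was called lower for 19 of the 57 in CA1, where 3.41% of all genes were, with a median of -0.46 log2 against -0.06 over all genes. In CA3 it was called for 0 of the 57, where 0.165% of all genes were called in either direction. The inducible Hsp70 genes Hspa1a and Hspa1b and the inducible Hsp90 gene Hsp90aa1 had no probe set of that single symbol. They are among the listed genes that are not analysed here, so nothing is known here of their change.

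Among the other Hsp70, Hsp110 and Hsp90 genes, 2 of 5 tested rose in CA1 total RNA. These were Hspa2, a Hsp70 known from testis and brain, at 1.25 log2, and Hspa13, a microsomal Hsp70, at 0.89 log2. Hspa2 also rose on polysomes, by 0.86 log2 in CA1 and 0.78 log2 in CA3. Of 13 other DnaJ genes, 7 rose in CA1 total RNA and 6 in CA3 total RNA, with Dnajb4 at 1.11, Dnajc7 at 0.91, Dnajc21 at 0.70 and Dnajc2 at 0.65 log2 in CA1. After quantile normalization this list had 5 higher and 3 lower in CA1 total RNA, and 3 higher in CA3 total RNA with a median of 0.06 log2 against 0.20 as deposited. On polysomes Dnajb4 (0.42) and Dnajb2 (0.36) rose in CA1, and Dnajb2 (0.41) in CA3.

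Cochaperones and regulators of Hsp70 and Hsp90 rose for 14 of 22 in CA1 total RNA and for 11 in CA3 total RNA. Stip1, also called Hop, which links Hsp70 to Hsp90, rose by 1.03 log2 in CA1, as did Chordc1, a CS-domain partner of Hsp90, and the immunophilins Fkbp5 and Fkbp4 rose by 0.95 and 0.90. Bag6 (-0.28) and Fkbp8 (-0.35) fell in CA1. Stip1 was the only one called on CA1 polysomes (0.58 log2, adjusted p = 0.00449). Of the CCT chaperonin and prefoldin genes, which fold actin and tubulin, 11 of 12 rose in CA1 total RNA and 8 in CA3 total RNA, with Cct5 at 1.00, Tcp1 at 0.89, Cct4 at 0.86 and Cct3 at 0.63 log2 in CA1. On CA1 polysomes Cct5 rose (0.40 log2), and 3 of the 12 were called there after quantile normalization. The ratio in CA1 was called lower for 7 of the 12 CCT and prefoldin genes, 7 of the 22 cochaperones and 5 of the 13 DnaJ genes, where 3.41% of all genes were. After quantile normalization these counts were 4, 4 and 3, with 1 cochaperone called higher and the CCT and prefoldin median at -0.37 log2 against -0.59 as deposited. The share of all genes called lower under that setting is not given here. Of all genes called for this ratio, 10.7% were higher as deposited and 40.5% after quantile normalization. Without the pool 4 arrays the counts of these lists were 8, 12 and 5 in CA1 and 7, 7 and 4 in CA3, where that setting called 8.59% and 9.89% of all genes in either direction. Of 5 tested heat shock factors and regulators, 2 rose in CA1 total RNA, Hsf2 (0.63) and the factor-binding Hsbp1 (0.34), while Hsf1 had -0.10 log2 (adjusted p = 0.59). After quantile normalization 1 of these 5 was called higher and 1 lower.

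**Figure D4:**
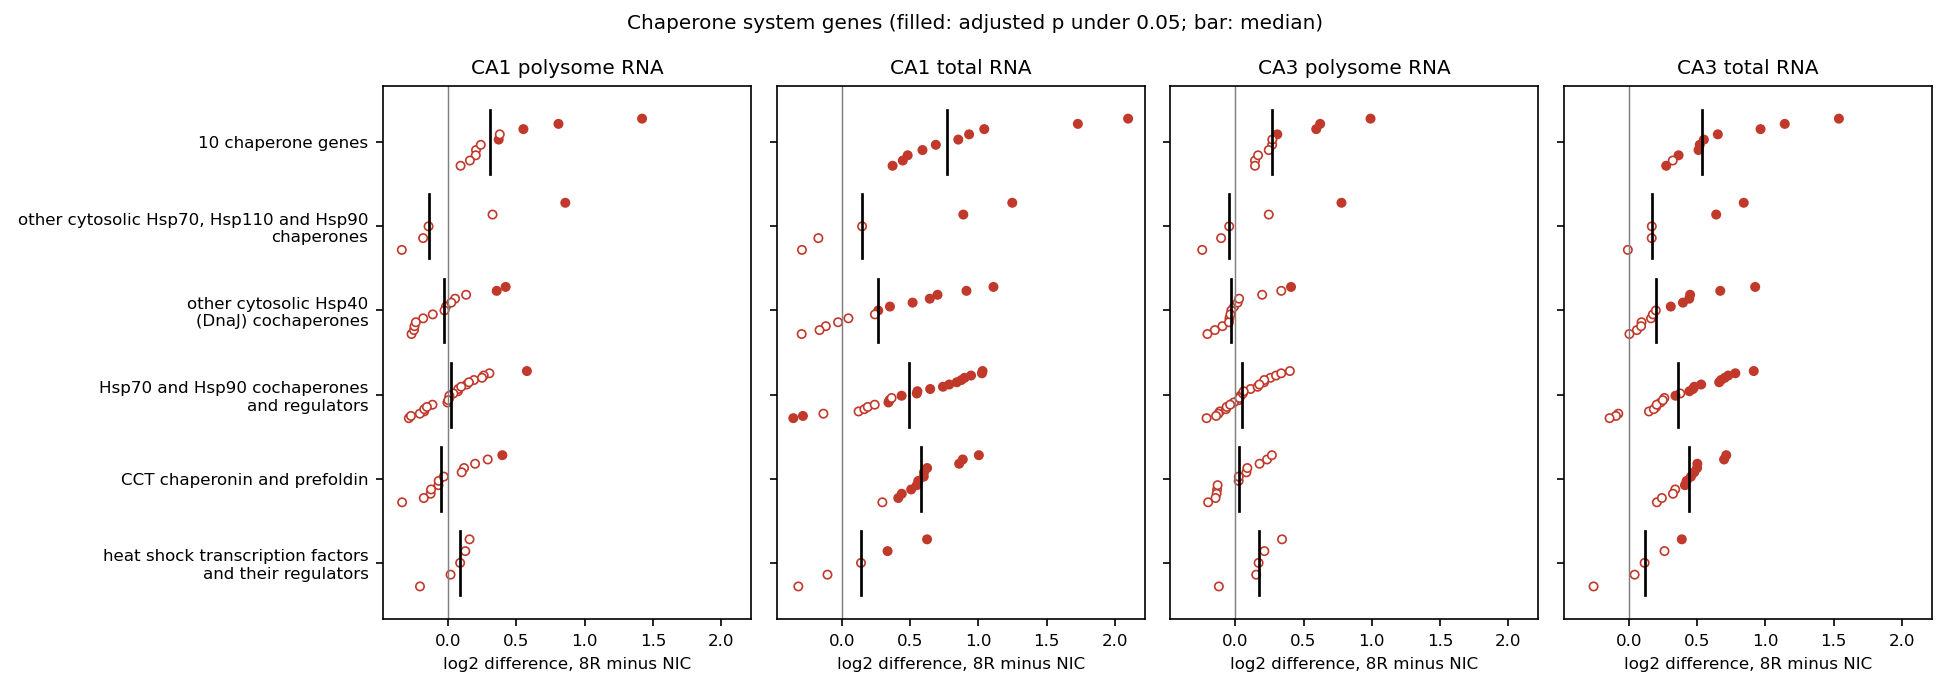
Difference between 8R and NIC (horizontal axis, log2) for the 10 chaperone genes and for the tested genes of 5 lists, with a panel for each region and fraction. Filled points have an adjusted p under 0.05, and black bars are medians, for the 10 genes 0.31 in CA1 polysome RNA against 0.77 in CA1 total RNA.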

How the data were processed

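The deposited values are array intensities on a linear scale, which per the submitters' processing notes were made by the authors with PLIER in Affymetrix Expression Console. Of background correction, scaling between arrays and versions no details were found in the sources. In all, the 36685 probe sets include 18511 with 1 gene symbol, 575 with several and 17599 with none. The brightest probe set of 1 symbol stood for each gene. Values were taken as log2(intensity + 16), which understates changes of dim genes, and a gene was tested where its mean reached the 30th percentile of all genes (5.39 log2).

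limma 3.58.1 in R 4.3.3 fitted 8 group means to the 27 arrays with an intensity trend in the variances (19 residual and 10.1 prior degrees of freedom). Tests are two-sided, with p-values adjusted by Benjamini-Hochberg over the 12716 genes of each of 17 comparisons. Genes under 0.05 were called. Every adjusted p is limma's. Replicates within a group are pools of rats. The p-values of the main fit rest on a spread averaged over all 8 groups, though 8R arrays varied more than NIC arrays. That fit treats all arrays as independent, though the same 8R pools recur across regions and fractions. The number of arrays, 3 or 4 a group, limits the precision. 8R comparisons in both fractions or regions share pools.

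Pool numbers come from the description codes. Deviations of same-numbered 8R arrays correlated between fractions in 7 of 7 pairs (0.284 to 0.772) and between regions in 7 of 7 (0.124 to 0.777), those of NIC arrays above 0.1 in 1 of 6 and 0 of 6. The pool was therefore also used as a random block (estimated correlation 0.268) or a fixed one. Scaling matters for counts over all genes: in CA1 total RNA 76.6% of called genes were higher in 8R as deposited, against 52.7% after quantile normalization. In CA3 these shares were 91.4% against 59.1% for total RNA and 89.6% against 73.3% for polysomes.

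The genes, gene lists, marker lists and alternatives were chosen with earlier results of these data known. All 10 genes are named, from each list up to 4 genes with the largest called change in CA1 total RNA, and the 5 genes most like the mean of the 10. Other list genes named were called on polysomes or fell, or are Hsf1, and were chosen after their values were seen. Other settings were pseudocounts of 1 and 64, quantile normalization, no filter, only the groups compared, array weights, no 8R pool 4, and each array left out. The mean of a gene's probe sets was also run, but it cannot change the 10 genes, which have 1 probe set each, and is left out of the counts of alternatives.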

Additional observations from a re-analysis of the deposited data

Results flagged for a closer look

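In CA1, 3 of the 10 genes had a change on polysomes that differed from their change in total RNA by the test of that difference. The difference of the 2 changes, polysome minus total, was -0.921 log2 for Dnaja1, -0.884 log2 for Cacybp and -0.649 log2 for Hspa4. All 3 were lost without replicate 2 of NIC CA1 total RNA. Hspa4 was also lost with quantile normalization and without replicate 1 of NIC CA1 polysome RNA.

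One array lay far from the others of its group. Hsp90ab1 had its highest 8R CA3 polysome value in pool 4, at 1372.08, and the gap to the next array was 0.836 of the whole range of the 4 log2 values, above Dixon's 95% critical value. Of 30 sets of 4 arrays tested, 1 was singled out, and chance alone gives about 1 in 20. The other 8R CA3 polysome arrays of this gene measured 1158, 1139 and 1120.4. Its change there was 0.14 log2 and was not called.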

How the results depend on the processing

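The count of 10 of 10 genes higher in CA1 total RNA was the same in every setting tried. Quantile normalization gave 7 genes in CA1 polysome RNA, 6 for polysome against total RNA in NIC CA1, where Dnaja4 turned to -0.112 log2, and for CA1 against CA3 0 in NIC total RNA, 0 in NIC polysome RNA, 1 in 8R total RNA and 1 in 8R polysome RNA. Without the filter, CA1 against CA3 gave 0 genes in NIC total RNA and 1 in 8R total RNA. With only the groups compared in the fit, the counts were 2 in CA3 polysome RNA, 8 for polysome against total RNA in NIC CA3, and for CA1 against CA3 3 in NIC total RNA, 8 in NIC polysome RNA, 1 in 8R total RNA and 1 in 8R polysome RNA. Array weights gave 5 and 6 genes for the change of the ratio in CA1 and CA3, 7 for the ratio in NIC CA3, and for CA1 against CA3 2 in NIC total RNA and 8 in 8R polysome RNA. Without 8R pool 4 they were 5 and 2 for the change of the ratio in CA1 and CA3, 7 for the ratio in NIC CA3, and 2 for CA1 against CA3 in NIC total RNA. With the pool as a random block they were 6 and 3 for the change of the ratio, 7 for the ratio in NIC CA3 and 8 for CA1 against CA3 in 8R polysome RNA. With the pool as a fixed block they were 2 for the change between regions in total RNA, 8 and 3 for the change of the ratio in CA1 and CA3, 7, 5 and 3 for the ratio in NIC CA3, 8R CA1 and 8R CA3, and for CA1 against CA3 2 in NIC total RNA and 8 in 8R polysome RNA. The calls in NIC total RNA include genes lower in CA1, 2 of 3 with only the groups compared and 1 of 2 with array weights, without pool 4 and with the fixed block. The blocks moved no other count by over 1.5 times. A fixed block cannot be fitted to 8R against NIC, since pools lie within conditions. The cause of these shifts was not tested. Shares of all genes called moved with the setting too where they are given above, and none are given for array weights or for only the groups compared. These counts are therefore not read as results about the 10 genes.

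Leaving out 1 array at a time gave 10 genes throughout in CA1 total RNA, 2 to 5 in CA1 polysome RNA, 8 to 9 in CA3 total RNA and 2 to 4 in CA3 polysome RNA. For the change of the ratio it gave 0 to 3 in CA1 and 0 to 1 in CA3, for the change between regions and for the ratio change between regions 0. For polysome against total RNA it gave 9 in NIC CA1, 4 in NIC CA3, 2 to 5 in 8R CA1 and 1 to 2 in 8R CA3. For CA1 against CA3 it gave 0 in NIC total RNA, 1 to 2 in NIC polysome RNA, 1 to 2 in 8R total RNA and 2 to 6 in 8R polysome RNA. Over single genes, 2903 of 3100 values kept their direction or stayed uncalled, though 95 of these, uncalled in both settings, changed sign, 86 calls were lost, 110 were gained and 1 turned. The ratio change between regions already uses all groups, so a fit of the compared groups alone was not run.

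Limits are the 3 or 4 arrays of a group, the unknown scaling between arrays, the equal mass of RNA on each array and pseudogenes of 5 of the 10 genes, whose share in the signal was not tested. A pellet does not resolve how many ribosomes a transcript carries.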
